A study of Homo sapiens with 12 samples.

Results

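Box C/D small nucleolar RNAs (snoRNAs) were followed in HEK293, an established cell line from human embryonic kidney, whose cells produced either a catalytic mutant (mut) or a wild-type (WT) form of the exonuclease DIS3L2. The members are the genes whose symbols begin with SNORD and a number, without the copies of SNORD3 (U3) and without SNORD113 to SNORD116 of the imprinted clusters. In total RNA the rule found 179 gene identifiers with 165 distinct symbols among 60483 genes. In small RNA it found 138 features with 137 distinct symbols among 10796 annotated features, and 136 symbols were present in both assays.

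Both kinds of line were built with the Flp-In T-REx system, and in both a doxycycline-inducible plasmid (pAL_02 for mut, pAL_01 for WT) carried recoded, FLAG-tagged DIS3L2 together with sh-miRNAs against the endogenous mRNA. Cells had received 100 ng/ml doxycycline for 3 days. There were 3 mut and 3 WT libraries of rRNA-depleted, strand-specific total RNA, and 3 mut and 3 WT libraries of TAP-treated, size-selected small RNA. Endogenous DIS3L2 was thus targeted in both groups, and no uninduced or parental cells entered the comparison; whether a variant was represented by 1 clone is not stated. Nothing in the labels ties the replicates to separate cultures; a p-value here is measured against the spread of the libraries of a group, and that spread may be only technical.

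Box C/D snoRNAs are short nucleolar RNAs named for their conserved C and D boxes. Bound by fibrillarin, NOP56, NOP58 and SNU13, most of them guide ribose methylation of ribosomal RNA, some guide it on the U6 spliceosomal RNA, and a few are needed for cleavage of the ribosomal RNA precursor. In human cells most are released from introns of host genes, many of which encode ribosomal proteins or translation factors, and only a few have promoters of their own. DIS3L2 is a cytoplasmic 3′ to 5′ exonuclease that prefers RNAs with uridine tails.

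Total RNA libraries held between 8315986 and 12675042 counts in genes, and small RNA libraries between 493314 and 1219718 fragments. DIS3L2 itself was counted at 1137, 1046 and 1079 counts per 1000000 gene counts (CPM) in mut and 768, 819 and 760 CPM in WT libraries, a sum of endogenous and plasmid-derived reads as far as the counting allowed both, so it does not check the catalytic change. Reads outside any annotated gene made up 12.3% to 13.7% of the reads in mut and 16.6% to 19.4% in WT total RNA libraries. Reads that overlap several genes, which are left out of the gene counts, made up 8.60% to 9.86% in mut and 6.90% to 8.28% in WT. Their part in the member counts and in the host counts was not tested. The third mut small RNA library stood apart, with a member share of 33.2% against 23.1% and 22.9% in the other mut libraries. Many of the levels and folds that it moves are also given without it, but not all.

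The sequences of host gene starts are shown because the hosts are the transcripts from which most members are cut. Each window runs from 30 bases before to 10 bases into the annotated transcript (RefSeq, GRCh38.p14, transcribed strand), and capitals mark the run of C and T that begins at the annotated first base where that base is C. The first 5 are the hosts of 5 of the 6 members that rose in total RNA. The sixth is the noncoding host to which 8 members were assigned here. SNORD75 and SNORD77, also on the list of GAS5 members, were not assigned.
SNX5 (host of SNORD17), chr20:17968785-17968824, minus strand: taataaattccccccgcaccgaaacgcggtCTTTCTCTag
RPS13 (host of SNORD14A), chr11:17077658-17077697, minus strand: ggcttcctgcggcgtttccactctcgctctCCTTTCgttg
RPL3 (host of SNORD83A), chr22:39319614-39319653, minus strand: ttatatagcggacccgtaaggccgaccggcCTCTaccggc
HSPA8 (host of SNORD14E), chr11:123062127-123062166, minus strand: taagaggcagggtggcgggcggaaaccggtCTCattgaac
PTCD3 (host of SNORD94), chr2:86106205-86106244, plus strand: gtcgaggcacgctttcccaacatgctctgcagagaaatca
GAS5 (host of SNORD44, SNORD47 and 6 others), chr1:173869036-173869075, minus strand: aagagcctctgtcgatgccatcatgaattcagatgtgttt
A C at the first base followed by at least 4 C or T, the pattern of terminal oligopyrimidine transcripts, was read on the transcribed strand at that position only. It was present in 21 of 63 hosts with an entry (33.3%) and in 1429 of 35116 promoters in the table (4.07%). Of the 6 windows shown, SNX5 and RPS13 have it, and the other 4 do not at the start annotated here.

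In total RNA, 6 members rose in mut and none fell: SNORD17, SNORD94, SNORD13, SNORD83A, SNORD14E and SNORD14A. Their log2 fold changes (mut over WT) ran between 0.50 and 1.09, and between 0.17 and 0.69 once the trend of each library on gene length was removed, when 4 of the 6 passed. The test was edgeR's quasi-likelihood F test on 14409 genes with Benjamini-Hochberg adjustment at 0.05, in which 13% of all genes were higher in mut, 14.2% lower and 27.2% past the test in either direction. Only 27 of the 179 identifiers had enough counts to be tested, so the 6 are 22.2% of those tested; 46 others had counts below the filter and 106 were at 0 in all 6 libraries. The filter keeps members with enough counts in either group and therefore gives the tested members no weight as a sample of the family.

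SNORD17, which guides methylation of the large-subunit ribosomal RNA, held 61.7% of all member counts. It was at 481, 547 and 495 CPM in mut and at 379, 376 and 326 CPM in WT libraries. Every mut library lay above every WT library. The log2 fold change was 0.50 ± 0.06 (SE, n = 3 each, edgeR adjusted p = 8.3e-07). SNORD17 lies at chr20:17962710-17962946 (hg38) and, at 237 nt, was the longest member and the only one over 200 nt.

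SNORD94 guides methylation of U6 snRNA. It was at 39.1, 66.5 and 48.0 CPM in mut and 32.8, 32.2 and 21.4 CPM in WT libraries, without overlap. Its log2 fold change was 0.81 ± 0.13 (SE, edgeR adjusted p = 6.1e-05). SNORD67, another U6 guide, had 18, 29 and 19 counts in mut and 16, 18 and 15 counts in WT libraries, and its difference, 0.65 ± 0.28 on the log2 scale (SE), did not pass (edgeR adjusted p = 0.090). The U6 guides SNORD8 and SNORD9 were at -0.01 ± 0.23 and 0.08 ± 0.36 (log2, SE), SNORD7 had too few counts and SNORD10 was at 0.

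Members listed here under ribosomal RNA processing are SNORD13 (U13), SNORD14A to SNORD14E (U14), SNORD22 (U22) and SNORD118 (U8). SNORD13 has a promoter of its own and acts in maturation of small-subunit ribosomal RNA; it was at 22.1, 21.8 and 20.6 CPM in mut and 15.9, 15.1 and 12.4 CPM in WT libraries, and its log2 fold change was 0.57 ± 0.10 (SE, edgeR adjusted p = 0.00021). SNORD14E had 42, 37 and 45 counts in mut and 28, 30 and 13 counts in WT libraries. This was 1.03 ± 0.22 on the log2 scale (SE, edgeR adjusted p = 0.0011). SNORD14A had 52, 32 and 41 counts in mut and 26, 35 and 30 counts in WT libraries; its log2 fold change was 0.68 ± 0.21 (SE, edgeR adjusted p = 0.020). In CPM the mut libraries of all 3 lay above the WT libraries. SNORD14B, SNORD14C, SNORD14D, SNORD22, SNORD118 and SNORD97, which guides methylation of a transfer RNA, were at 0 in all total RNA libraries.

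SNORD83A, encoded within RPL3, had 58, 44 and 53 counts in mut and 19, 46 and 20 counts in WT libraries. In CPM this was 6.44, 5.20 and 6.02 in mut and 1.98, 3.63 and 2.41 in WT, without overlap. The log2 fold change, 1.09 ± 0.21 (SE, edgeR adjusted p = 0.00036), was the largest among the 27 tested members.

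Among the 21 tested members that did not pass, log2 fold changes ran between -0.14 and 0.65. SNORD15B, second in counts, was at 99.0, 134 and 176 CPM in mut and 165, 109 and 88.7 CPM in WT libraries, which overlap, with a log2 fold change of 0.18 ± 0.15 (SE). It passed only when the first mut library (log2 fold change 0.37, edgeR adjusted p = 0.026) or the first WT library (0.45, edgeR adjusted p = 0.014) was left out. SNORD46 and SNORD4A, next in counts after SNORD13, were at 0.21 ± 0.15 and 0.16 ± 0.19 (log2, SE). SNORD12B was at 0.23 ± 0.22. The only negative values were SNORD11 (-0.14 ± 0.32), SNORD6 (-0.14 ± 0.34) and SNORD8.

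**Figure D1:**
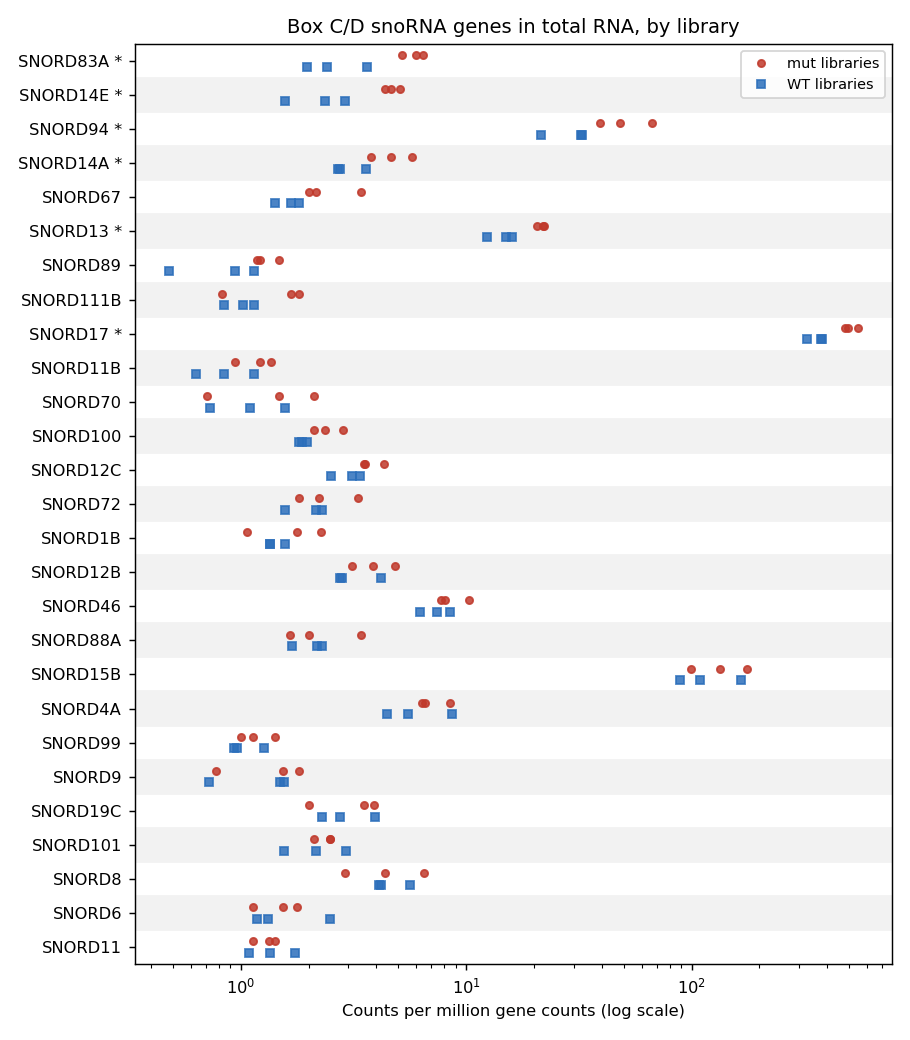
CPM (log axis) of the 27 tested box C/D snoRNA genes in each total RNA library, ordered by log2 fold change from highest (top) to lowest; circles are the 3 mut and squares the 3 WT libraries, and an asterisk marks the 6 members past the test. SNORD17 lies above all others, and in 10 of 27 members every mut library lies above every WT library.

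In 10 of the 27 tested members (37.0%) every mut library lay above every WT library, and in none did every mut library lie below; over all genes tested these shares were 18.5% above and 21.4% below. The median log2 fold change over the 27 was 0.31, against -0.01 over all genes tested. Gene length moved with this beyond the members. Among the 145 other tested genes of at most 300 nt, 51.7% were higher in mut and 1.38% lower, and their median was 0.45. Within the 27 tested members, longer ones tended to have higher log2 fold changes (Spearman coefficient 0.40, a description). With the trend of each library on gene length removed, the member median was -0.12. The 4 members that passed then had smaller log2 fold changes: SNORD17 was at 0.19 (edgeR adjusted p = 0.0034), SNORD94 at 0.45 (edgeR adjusted p = 0.0032), SNORD83A at 0.69 (edgeR adjusted p = 0.015) and SNORD14E at 0.60 (edgeR adjusted p = 0.037). SNORD13 (0.17, edgeR adjusted p = 0.23) and SNORD14A (0.27, edgeR adjusted p = 0.40) did not. SNORD14A also missed the threshold in DESeq2 (adjusted p = 0.14) and without the first mut, first WT or second WT library (edgeR adjusted p = 0.13, 0.072 and 0.070). The part of gene length in these differences was not tested further.

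Members together took 0.0727%, 0.0860% and 0.0836% of gene counts in mut and 0.0665%, 0.0612% and 0.0516% in WT libraries. Without SNORD17 the shares were 0.0246%, 0.0312% and 0.0341% in mut and 0.0287%, 0.0236% and 0.0190% in WT, and the groups overlapped. SNORD17, SNORD15B and SNORD94 together held 85.7% of member counts.

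In small RNA no member was called higher or lower in the main fit, which does not show that none changed. Of 115 tested members 0 passed edgeR's quasi-likelihood F test, with 3 at an unadjusted p under 0.05 (6.8% of all features), and DESeq2 and limma also called 0; over all 559 annotated features 0.179% were higher in mut and 0% lower. The assay had far more member signal: members took 23.1%, 22.9% and 33.2% of library fragments in mut and 27.6%, 29.99% and 26.5% in WT libraries. Of 137 members, 120 had at least 1 fragment and 17 were at 0. The median log2 fold change was -0.03 over members and 0.02 over all features tested, 108 of 115 members lay within 0.5 of 0, and the median SE was 0.21. SNORD88B, at -0.62 ± 0.20 (SE), was among the members that did not pass.

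The highest member per length was SNORD24 in RPL7A, at 269390 ± 108952 FPKM in mut and 249534 ± 17349 FPKM in WT (SD, n = 3 each). FPKM and FPM are scaled to library totals alone, while the fitted folds also use scaling factors (TMM), so means and folds can differ. With all libraries the factors were 0.87, 0.93 and 1.12 in mut and 0.98, 1.03 and 1.08 in WT. Without the third mut library the mut mean of SNORD24 was 207050 FPKM, below that of WT. Its fitted log2 fold change was then -0.08 (edgeR adjusted p = 0.77), against 0.16 with that library. SNORD37 in EEF2 was at 191148 ± 72059 FPKM in mut and 209616 ± 26161 FPKM in WT. Without the third mut library its mut mean was 149826 FPKM and its log2 fold change -0.30 (edgeR adjusted p = 0.37), against -0.08 with it. SNORD58A in RPL17 was at 221166 ± 51165 FPKM in mut and 170852 ± 21710 FPKM in WT. SNORD5, SNORD26, SNORD63, SNORD118, SNORD13, SNORD46 and SNORD83A followed, with means between 116529 and 180878 FPKM in mut and between 125601 and 199836 FPKM in WT. SNORD24 lay above SNORD37 in all 6 libraries, while for every other pair of neighbours among the 10 highest the order held in 2 to 5 of the 6 libraries. In 6 of these 10 the third mut library was the highest of all 6 libraries, SNORD24 and SNORD37 among them.

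The highest and lowest tested members differed 1351-fold in mean FPKM, and the order of members was similar in every library, with Spearman coefficients between pairs of libraries of 0.969 to 0.992 (a description over the same 115 members). The 10 members with the most fragments held 50.9% of member fragments. The median length was 77 nt, with a range of 64 to 237 nt.

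**Figure D2:**
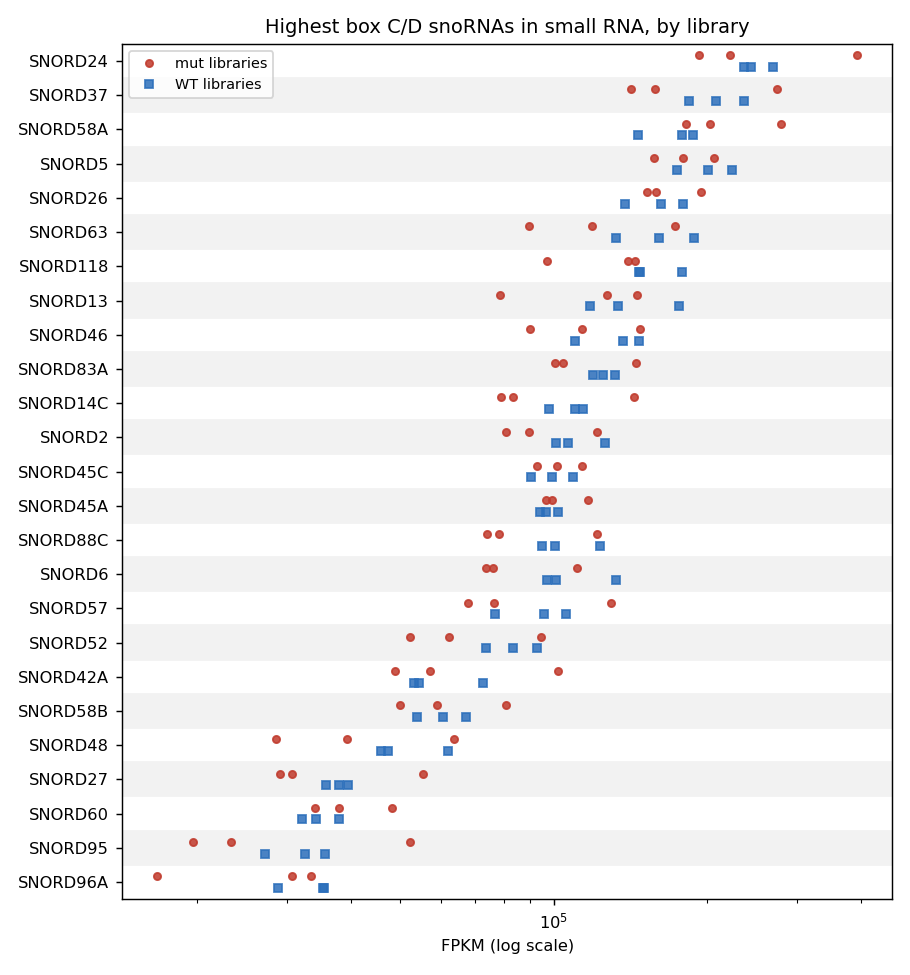
FPKM (log axis) of the 25 highest box C/D snoRNAs in each small RNA library, ordered by the mean over 6 libraries; circles are the 3 mut and squares the 3 WT libraries. The groups overlap in every member shown except SNORD118, whose 3 mut libraries lie below the 3 WT libraries.

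SNORD118 (U8), transcribed from its own promoter and needed for large-subunit ribosomal RNA, was at 139941, 144491 and 96895 FPKM in mut and 147681, 146723 and 178854 FPKM in WT libraries. In FPKM all mut libraries were below all WT libraries. The fitted log2 fold change, which also uses TMM factors, was -0.19 ± 0.26 (SE) and did not pass (edgeR adjusted p = 0.86). Without the third mut library it was 0.04. SNORD13 was at 127179, 78494 and 145959 FPKM in mut and 176285, 133906 and 117833 FPKM in WT libraries, which overlap, with a log2 fold change of -0.21 ± 0.27 (SE). SNORD22 was at 1000, 1151 and 625 fragments per 1000000 of the library total (FPM) in mut and 769, 677 and 808 FPM in WT libraries. Its log2 fold change was 0.43 ± 0.27 (SE) with all libraries and 0.71 (edgeR adjusted p = 0.032) without the third mut library.

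The U14 copies stood at different levels. SNORD14C was at 101925 ± 36280 FPKM in mut and 107321 ± 8430 FPKM in WT, and at 81022 FPKM in mut without the third library (log2 fold change -0.22, edgeR adjusted p = 0.48, against -0.02 with it). SNORD14A, SNORD14B, SNORD14D and SNORD14E had means between 2880 and 5532 FPKM in mut and between 2743 and 6539 FPKM in WT (n = 3 each). Their log2 fold changes ran between -0.18 (SNORD14D) and 0.17 (SNORD14B), each within 1 SE of 0, and between -0.34 (SNORD14D) and 0.27 (SNORD14B) without the third mut library, none past the test. Near-identical copies may share reads, so values of single copies are uncertain.

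Of the U6 guides, SNORD8 was at 515, 517 and 409 FPM in mut and 634, 564 and 560 FPM in WT libraries. SNORD9 was at 204, 174 and 204 FPM in mut and 235, 241 and 234 FPM in WT libraries. In FPM both were lower in every mut library. Their fitted log2 fold changes, which also use TMM factors, were -0.17 ± 0.21 and -0.19 ± 0.18 (SE) and did not pass. Without the third mut library these folds were 0.00 and -0.14. SNORD94 was at 70.4, 86.9 and 39.7 FPM in mut and 89.2, 85.1 and 142 FPM in WT libraries (log2 fold change -0.51 ± 0.34, SE, and -0.23 without the third mut library). SNORD67 was at -0.37 ± 0.23, SNORD7 at 0.00 ± 0.28 and the transfer RNA guide SNORD97 at 0.27 ± 0.34 (log2, SE). Without the third mut library they were at -0.29, 0.01 and 0.58, none past the test.

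SNORD17 had 38, 263 and 10 fragments in mut and 10, 23 and 16 fragments in WT libraries. The second mut library was far above the other 5 and the third was as low as the lowest WT library. The log2 fold change was 1.86 ± 0.76 (SE, unadjusted p = 0.035, edgeR adjusted p = 0.69). Without the third mut library it was 2.34 (edgeR adjusted p = 0.020), and without the filter on low counts 1.85 (edgeR adjusted p = 2.1e-07). At 237 nt this member is longer than the inserts of 20 to 200 nt that the labels give (20 to 220 nt in the series text).

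The largest falls were SNORD13P1 (-0.76 ± 0.39), SNORD88B (-0.62 ± 0.20), SNORD1B (-0.54 ± 0.29), SNORD94 and SNORD53 (-0.51 ± 0.27), and the largest rises after SNORD17 were SNORD121A (0.55 ± 0.31), SNORD58A (0.44 ± 0.21), SNORD121B (0.43 ± 0.25) and SNORD22, all as fitted log2 values with SE and none past the test. Without the third mut library SNORD13P1 was at -1.10, SNORD88B at -0.64, SNORD1B at -0.79 and SNORD53 at -0.41. SNORD121A was then at 0.70, SNORD58A at 0.36 and SNORD121B at 0.32, and none of these passed. The largest fall without that library was SNORD54 (-1.18, edgeR adjusted p = 0.072). SNORD88B was at 84.3, 86.1 and 109 FPM in mut and 165, 160 and 128 FPM in WT libraries, without overlap (unadjusted p = 0.011, edgeR adjusted p = 0.37). SNORD91B was at 1093, 1086 and 1465 FPM in mut and 948, 1056 and 988 FPM in WT libraries (log2 fold change 0.36 ± 0.16, SE, unadjusted p = 0.046, edgeR adjusted p = 0.69). In FPM, which leaves out the TMM factors of the fit, SNORD91B was the 1 member of 115 (0.870%) whose mut libraries all lay above. On the same scale 7 members (6.09%) lay wholly below: SNORD118, SNORD20, SNORD8, SNORD14A, SNORD9, SNORD88B and SNORD1A. Over all annotated features tested these shares were 3.4% above and 6.8% below.

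The assays saw different members. Of 107 members with at least 200 small RNA fragments, 60 were at 0 in total RNA, among them 5 of the 10 highest by FPKM. The series text states that the total RNA protocol favours molecules longer than 200 nt, and reads that overlap several genes are not in the gene counts. Both assays tested 22 members, of which 9 had the same sign. SNORD94 was at 0.81 in total RNA and -0.51 in small RNA, SNORD83A at 1.09 and -0.04, SNORD13 at 0.57 and -0.21, SNORD14E at 1.03 and 0.08, SNORD14A at 0.68 and -0.13 (log2 fold changes). The difference between assays was not tested. In total RNA a read over an intronic member may come from the snoRNA or from unspliced host RNA, and these cannot be told apart.

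**Figure D3:**
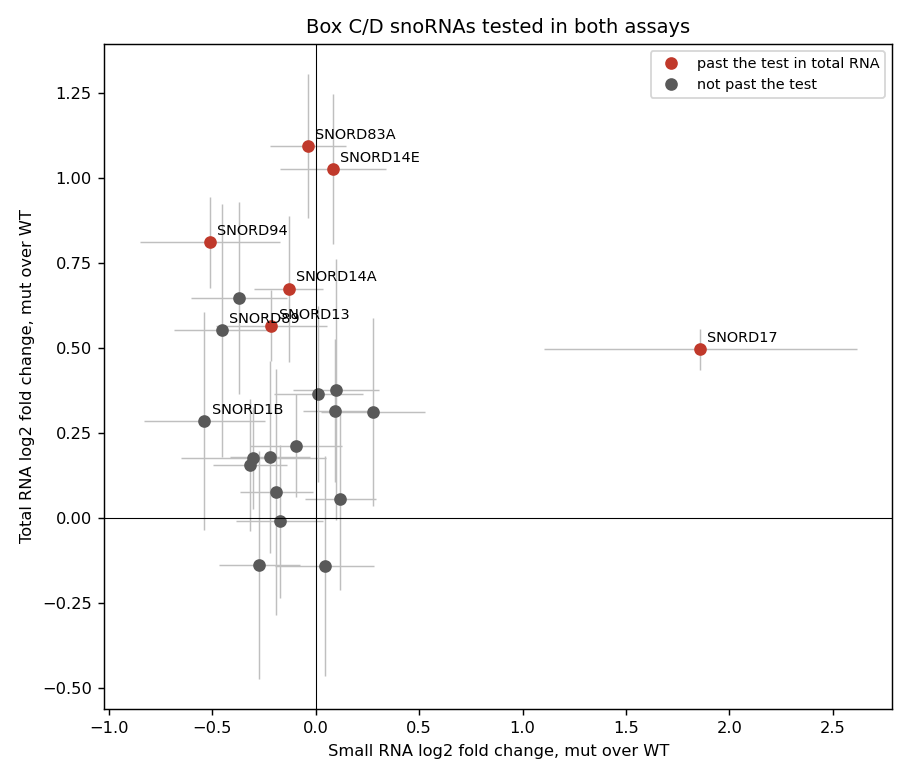
Log2 fold change, mut over WT, in small RNA (horizontal) and total RNA (vertical) of the 22 box C/D snoRNAs tested in both assays; bars are SE, and coloured points are the 6 members past the test in total RNA. The 6 lie between 0.50 and 1.09 in total RNA, and 5 of them between -0.51 and 0.08 in small RNA, with SNORD17 at 1.86.

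Host genes were assigned to 144 members. The hosts found by symbol in total RNA were 77, of which 62 were protein-coding and 15 long noncoding, and 33 held more than 1 member. PRRC2B, the host assigned to SNORD62A, was not among these 77. Of the 75 hosts tested in total RNA, 17 were higher in mut (22.7%) and 10 lower (13.3%), beside 13% and 14.2% of all genes; the median log2 fold change was 0.04. SNHG12, a noncoding host of SNORD99, rose by 0.61 ± 0.10 (log2, SE), with 24.9 ± 1.97 CPM over mut and 16.2 ± 1.69 CPM over WT libraries (SD, n = 3 each, edgeR adjusted p = 7.2e-05). GAS5, a growth-arrest noncoding RNA, averaged 148 ± 8.17 CPM over mut and 111 ± 2.90 CPM over WT libraries (0.41 ± 0.06, edgeR adjusted p = 1.9e-05). SNX5, which encodes a sorting nexin, averaged 134 ± 4.98 CPM over mut and 98.6 ± 1.71 CPM over WT libraries (0.45 ± 0.06, edgeR adjusted p = 8.1e-06).

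Of the 6 hosts that encode translation initiation or elongation factors, grouped after their values were seen, EIF4A1 (0.41), EIF4G1 (0.36) and EEF2 (0.24) rose, EIF4G2 (0.06, edgeR adjusted p = 0.36) and EEF1B2 (0.13, edgeR adjusted p = 0.086) did not pass, and EIF4A2 fell by 0.34 on the log2 scale, with 158 ± 11.7 CPM over mut and 200.4 ± 0.650 CPM over WT libraries (SD, n = 3 each). Ribosomal protein hosts past the test were RPL4 (0.28), RPL37 (0.25), RPS3A (0.18) and RPS20 (0.14), all higher. TMEM107 (0.45), whose span contains SNORD118, the splicing factor SF3B3 (0.38), the adaptor subunit AP1B1 (0.26), SNHG29 (0.23), the chaperone HSPA8 (0.22), the spliceosomal SNRPB (0.18) and the RNA-binding RBMX (0.14) were also higher. PRPF39 (-0.43), the chromatin remodeller CHD8 (-0.34), NOP58 (-0.30), RC3H2 (-0.29), CCAR1 (-0.20), CCNB1IP1 (-0.19), nucleolin NCL (-0.19), nucleostemin GNL3 (-0.17) and PTCD3 (-0.16) were lower (all log2). CCAR1, CCNB1IP1, NCL, GNL3, PTCD3, RBMX, RPS20 and SNRPB each passed in at most 7 of 13 settings, PTCD3 in 2.

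Of the 5 members that rose and have a host, 4 stood apart from its value. SNORD94 was at 0.81 and its host PTCD3 at -0.16; SNORD83A was at 1.09 and RPL3 at 0.05; SNORD14A was at 0.68 and RPS13 at 0.02; SNORD14E was at 1.03 and HSPA8 at 0.22. SNORD17 and SNX5 were close, at 0.50 and 0.45 (log2 fold changes, total RNA). Of 23 tested members with an assigned and tested host, 20 lay above their host. Members are short genes and hosts are long ones, and other genes of at most 300 nt had a median of 0.45. With the gene length trend removed, 9 of the 23 lay above their host, and SNORD17 (0.19) lay below SNX5 (0.44). The difference between member and host was not tested.

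Levels of members cut from one host spread widely. Over 28 hosts with at least 2 tested members, the median ratio of the highest to the lowest member was 4.54 in mut and 4.47 in WT (mean FPKM). In RABGGTB the highest, SNORD45C, was 40.5-fold above the lowest, SNORD45B, in mut and 46.5-fold in WT. In RPL7A, SNORD24 was 45.3-fold above SNORD36C in mut and 42.7-fold in WT, and in NOP56, SNORD57 was 39.4-fold above SNORD86 in mut and 38.4-fold in WT. In SNHG1, a noncoding host, SNORD26 was 22.9-fold above SNORD22 in mut and 26.8-fold in WT; SNORD25, SNORD27, SNORD28 and SNORD30 lay between, and the 6 members had log2 fold changes between -0.12 and 0.43. The gene SNHG1 itself did not pass the test under any of 13 settings.

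**Figure D4:**
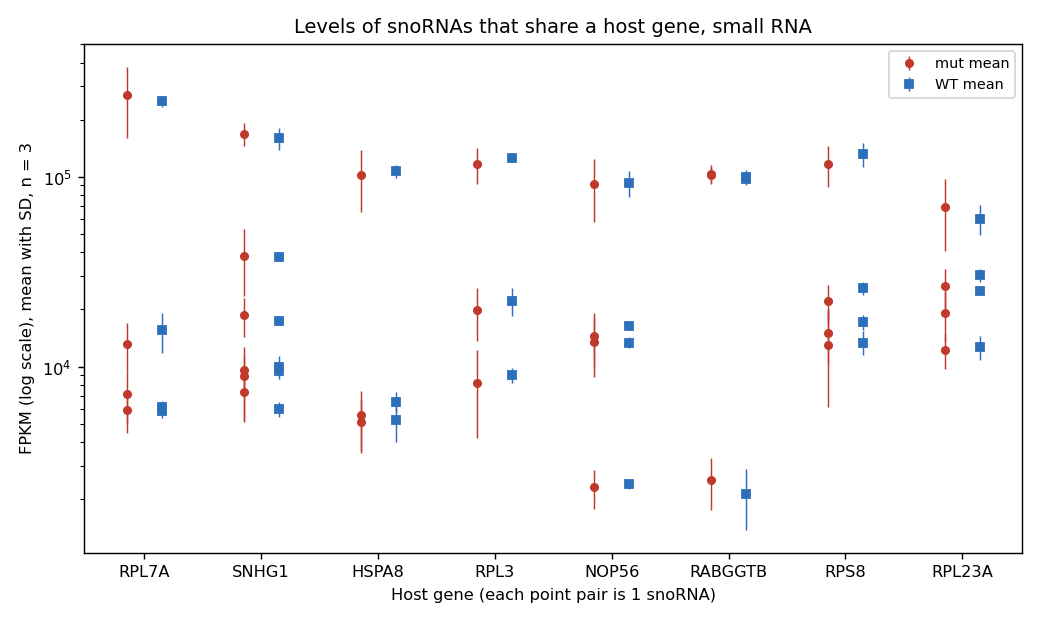
Mean FPKM with SD (log axis, n = 3 each) of the tested members of 8 host genes in small RNA; each pair of a circle (mut) and a square (WT) is 1 snoRNA. Within a host the levels spread by up to 46.5-fold (RABGGTB, WT), and circles and squares of a snoRNA lie close together.

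The GAS5 members had no annotated small RNA feature, so loci reconstructed by the authors from the reads were used. Of 92 RefSeq members without such a feature, 28 lay in loci with at least 200 fragments. The locus over SNORD81, SNORD47 and SNORD80 was at 6085, 6793 and 8221 FPM in mut and 5076, 5193 and 5262 FPM in WT libraries, without overlap. Its log2 fold change was 0.52 ± 0.15 (SE, unadjusted p = 0.0059) and did not pass over the 589 loci tested (edgeR adjusted p = 0.25), of which 0.17% were higher in mut, 4.92% lay wholly above, 6.62% wholly below and 7.81% had an unadjusted p under 0.05; it passed without the third mut library (0.50, edgeR adjusted p = 0.041). The locus over SNORD78 and SNORD44 was at 6533, 7157 and 12809 FPM in mut and 5276, 6856 and 5875 FPM in WT libraries (0.60 ± 0.20, SE, edgeR adjusted p = 0.32, and 0.38 without the third mut library, edgeR adjusted p = 0.17). The loci over SNORD79 and SNORD78, over SNORD76 and over SNORD74 were at 0.50 ± 0.17, 0.40 ± 0.15 and 0.18 ± 0.20 (log2, SE), and without the third mut library at 0.37, 0.33 and -0.06, none past the test. The 2 loci with SNORD78 overlap, so their fragments are not added.

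**Figure D5:**
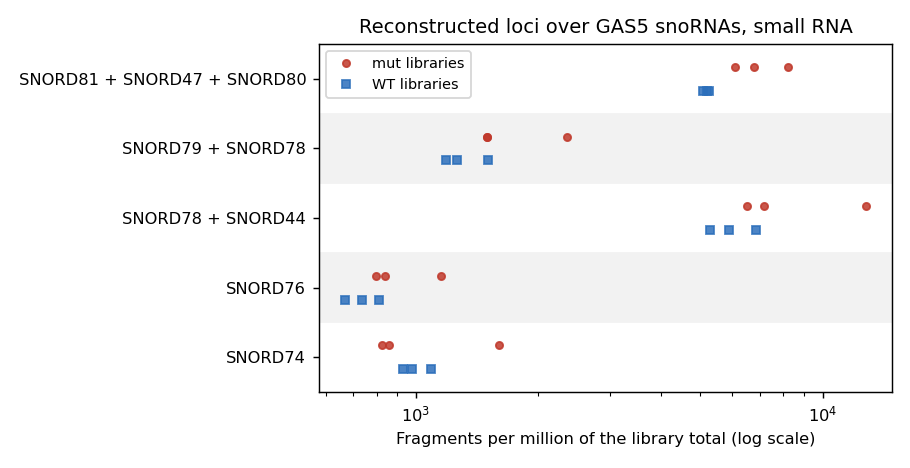
FPM (log axis) in the 5 reconstructed loci over GAS5 snoRNAs, by library; circles are the 3 mut and squares the 3 WT libraries. In the locus with SNORD81, SNORD47 and SNORD80 the mut libraries (6085 to 8221) lie above the WT libraries (5076 to 5262), and in the other 4 the groups overlap.

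For 80 members the reconstructed locus was longer than the annotated snoRNA, which gives the fragments beyond it. Both ends are pooled, with median extensions of 41.5 nt at the 5′ end and 63 nt at the 3′ end. Extension at the 3′ end alone was thus not measured. They made up 5.15%, 5.22% and 5.83% of locus fragments in mut and 5.17%, 5.75% and 5.13% in WT libraries, and the groups overlap. SNORD52 and SNORD61 gave most of them, with 13004 and 10052 fragments over the mut libraries and 9752 and 7041 over the WT libraries, not scaled for depth. The shares therefore say little about the other members. Members of at least 100 nt held 20.6%, 18.2% and 14.1% of member fragments in mut and 20.8%, 17.4% and 19.8% in WT libraries.

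The proteins of the particle were read from the same total RNA fit. Of 20 genes for core proteins, assembly factors and maturation partners, 3 rose (15%) and 3 fell (15%), close to the 13% and 14.2% of all genes tested. Among the core proteins NOP58 fell, with 109 ± 14.3 CPM over mut and 135 ± 6.58 CPM over WT libraries (SD, n = 3 each; -0.30 ± 0.07, SE, edgeR adjusted p = 0.0038). The methyltransferase FBL (0.03 ± 0.06), NOP56 (0.07 ± 0.06) and SNU13 (0.13 ± 0.07) did not pass. Of the assembly factors, the helicase RUVBL2 (0.23 ± 0.06) and TAF9 (0.30 ± 0.09) rose, and ZNHIT6 (-0.28 ± 0.08) and the chaperone adaptor RPAP3 (-0.36 ± 0.08) fell. RUVBL2, TAF9 and ZNHIT6 passed in 12, 10 and 11 of 13 settings. COIL, which encodes the Cajal body scaffold coilin, rose by 0.31 ± 0.08 (all log2, SE). The median over the 20 was -0.07.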

How the data were processed

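The members and gene lists were chosen with earlier results of these data known. Total RNA files hold raw read counts per Ensembl gene, as deposited. Small RNA files hold fragment counts, FPM (a signal scaled to depth) and FPKM per feature, all computed by the authors before they were deposited. Per the submitters' processing notes the build was hg38, and STAR 2.4.0 and HTSeq 0.6.1 were among the tools; the sources used here give no annotation version or strand setting. Between 57.8% and 63.2% of total RNA reads stood in rows that name no gene, which were left out. Small RNA features were named where both ends lay within 5 nt of a RefSeq gene (GRCh38.p14), and library totals are those behind the FPM signal. SNORD91A, with 2 transcripts of equal counts, was counted once.

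Each assay was fitted over its whole table with edgeR 4.0.16 in R 4.3.3 (TMM, filterByExpr, two-sided quasi-likelihood F test, Benjamini-Hochberg adjustment), on 14409 genes and 559 annotated features. SE is the log2 fold change over the root of F. CPM is relative to gene counts, and FPM and FPKM are relative to library totals, all without TMM factors. The fitted folds use those factors. Small RNA libraries that lie apart in FPM or FPKM may therefore overlap on the scale of the fit. DESeq2 1.42.0, limma 3.58.1 on log2(FPKM + 1) and on log2(FPKM + 10), other scalings, no filter, a gene length trend and leaving out each library were alternatives. The fit was also run on simulated counts in which every feature had the same spread setting. That run does not show the error rates of the fit on these data. A host is a protein-coding or long noncoding gene whose RefSeq span contains the member on the same strand where strands are given. For 19 of 116 the strand was not in the table. Hosts were sought only for members with at least 1 small RNA fragment or in a reconstructed locus with at least 200 fragments. SNORD19C and SNORD111B, tested in total RNA, were therefore given no host. Named genes are members past the test, the 10 highest by FPKM and by counts, the 5 largest rises and falls per assay, the role lists and clusters, and list proteins and hosts past the test.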

Additional observations from a re-analysis of the deposited data

How the results depend on the processing

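Of the alternatives run, none changed the direction of a called member in total RNA, and between 4 and 6 members were called. Removing the gene length trend gave a member median of -0.12, against 0.31, and 10 calls among the 20 protein genes (4 higher, 6 lower), against 6; the cause was not tested. DESeq2 called 2466 genes in total RNA (1208 higher, 1258 lower), against 3916. In small RNA the calls over all annotated features were 14 without the low count filter, 2 in DESeq2 and 0 to 30 when 1 library was left out, against 1; those among members were 1 without the filter (SNORD17) and 0 to 2 when 1 library was left out, the 2 being SNORD17 and SNORD22 without the third mut library. With the replicate number as a block, 3520 genes, 6 members and 20 host genes were called in total RNA (27 hosts without it) and 0 members in small RNA. The numbers did not pair the samples: correlations of same-numbered libraries were -0.09, -0.07 and 0.03 in total RNA and 0.20, -0.14 and -0.36 in small RNA. Alternatives for the reconstructed loci were added after the data were seen. SEs in small RNA did not follow level alone. Low members such as SNORD17, SNORD13P1 and SNORD125 had large SEs of 0.76, 0.39 and 0.34. SNORD118 and SNORD24, among the highest, had SEs of 0.26 and 0.23, and SNORD20 had 0.17.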
